A study of Mus musculus with 6 samples.

Results

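A set of 37 genes of the p53 response and of apoptosis, listed by name, was examined in the neocortex of Bcl11a mutant mouse embryos. Of these genes, 35 were measured among 19938 genes tested, each by a probe set that the array annotation assigns to that gene alone. Trp53, which encodes p53 itself, and Bax, an effector of the outer mitochondrial membrane, had no such probe set and were not analysed here. The 6 embryos, of embryonic day 14.5, gave 1 Affymetrix Mouse Gene ST array each, from RNA that was isolated embryo by embryo, so the arrays are biological replicates. Controls (n = 3) were Bcl11a+/+, and mutants (n = 3) were Bcl11aΔflox/Δflox, labelled as knockout, with both copies of a floxed allele deleted. The tissue was dissected neocortex, kept frozen, in both groups. The sources used here do not give the Cre driver, the cells or exon deleted, or the strain. Whole neocortex holds progenitors, neurons, vessels and blood, so fewer cells of a type and less RNA per cell cannot be told apart.

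In the intrinsic pathway of apoptosis, BH3-only proteins bind the pro-survival members of the Bcl2 family and so free Bax and Bak1 to open the outer mitochondrial membrane. Cytochrome c then assembles with Apaf1 into the apoptosome, which activates Casp9. p53 drives transcription of several BH3-only genes and of genes that halt the cell cycle or limit stress, while Mdm2 marks p53 for destruction. In the embryonic cortex, apoptosis removes some progenitors and newborn neurons, and p53 activation after DNA damage or disturbed mitosis is a known route to cell loss there.

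Promoter sequence of the members was read from RefSeq (GRCm38.p6) and searched for the p53 half-site, 1 part of a full p53 site, since many members are known targets of p53. For 31 of the 37 genes an entry was found. The p53 half-site, a run of purines, a C, an A or T pair, a G and a run of pyrimidines, reads the same on both strands. It was searched singly, not as a pair, and without mismatch in the 250 bases before each annotated start. It was found for 7 of the 31 genes (22.6%), against 8.20% of 27025 genes of the table, and in 7 of 44 member windows (15.9%), against 7.13% of 32851 windows. These are the 7 members, shown 5′ to 3′ on the gene's strand with the half-site in capitals and flanks of 10 bases. Gadd45a, a further p53 target described with the pathway lists, is shown after them because it rose. Of 100 further pathway genes with an entry, 11 held the half-site (11%), among them Rps27l, a p53 target with 2 half-sites whose log2 difference was -0.15 (limma adjusted p = 0.953).
Trp53, chr11:69580274-69580303, plus strand: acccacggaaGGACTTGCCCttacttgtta
Mdm2, chr10:117710925-117710954, minus strand: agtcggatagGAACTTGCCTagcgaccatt
Bax, chr7:45467080-45467109, minus strand: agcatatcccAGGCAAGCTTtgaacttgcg
Bmf, chr2:118544781-118544810, minus strand: cccaagtgaaGGGCTTGCCTcttgccgaat
Sesn1, chr10:41887256-41887285, plus strand: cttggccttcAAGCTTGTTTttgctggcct
Aen, chr7:78895927-78895956, plus strand: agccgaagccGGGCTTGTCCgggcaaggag
Ccng1, chr11:40755452-40755481, minus strand: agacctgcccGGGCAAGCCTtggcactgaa
Gadd45a, chr6:67037428-67037457, minus strand: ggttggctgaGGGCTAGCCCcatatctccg

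A match is a description of these letters and does not show binding. The half-site began 75 bases before a start in Trp53, 121 in Aen, 173 in Sesn1, 185 in Ccng1, 186 in Mdm2, 201 in Bax and 213 in Bmf. Bmf has 3 windows and Sesn1 has 2, and in each of these genes 1 window held it. Bcl2l11, the member with the second largest difference, had no half-site in either of its windows. The window of its upstream start (chr2:128125788-128126037, plus strand) is shown because it holds the core of a forkhead factor site, GTAAACA on either strand, in capitals.
Bcl2l11: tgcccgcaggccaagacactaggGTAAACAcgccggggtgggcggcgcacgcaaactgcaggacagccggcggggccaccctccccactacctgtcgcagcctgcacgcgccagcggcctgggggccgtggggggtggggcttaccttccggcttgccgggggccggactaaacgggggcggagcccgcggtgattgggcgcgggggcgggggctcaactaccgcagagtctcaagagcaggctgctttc

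That core, searched after the values were seen, was present before a start of 4 of the 31 members, Bcl2l11, Bbc3, Mdm2 and Eda2r (12.9%), against 3.54% of the genes of the table. It was in 9.09% of member windows and 3.17% of all windows. In Mdm2 it lies in the same window as the p53 half-site and does not overlap it. The log2 differences of Bbc3, Mdm2 and Eda2r were 0.00, -0.01 and 0.06, beside 0.39 for Bcl2l11.

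The 6 arrays correlated at 0.993 to 0.997 with each other. Bcl11a was lower in the mutants by a log2 difference of -0.84 (limma adjusted p = 0.00201, exact two-sided permutation p = 0.1, the smallest possible for 3 against 3), and the sources used here do not say whether its probes fall within the deletion. Sema3c, the semaphorin gene of the study's title, rose 2.41-fold (limma adjusted p = 0.00201). The cortical markers Emx1, Pax6, Tbr1 and Eomes had control means of 9.94, 11.01, 12.24 and 11.96 and mutant means of 9.94, 11.02, 12.25 and 12.16, and none of these 4 passed the test. The groups overlapped for Emx1, Pax6 and Tbr1, while for Eomes every mutant lay above every control (0.21). Among the other markers of these cortical cells, Neurod4, an intermediate progenitor gene, rose from 9.57 to 10.22 (limma adjusted p = 0.0294). Hopx, a radial glia gene, differed by -0.43 (limma adjusted p = 0.163) and Bcl11b, a projection neuron gene, by 0.29 (limma adjusted p = 0.219), both without overlap of the groups. Both differences were larger in size than the medians of their lists. Of 10 radial glia genes 3 had positive and 7 negative differences, with a median of -0.04, and Hes5 was also lower in every mutant (-0.17). Of 9 projection neuron genes 6 had positive differences, with a median of 0.02, and Sox5 was lower in every mutant (-0.10). From Xist and Y-linked expression, 2 of the 3 control embryos and 1 of the 3 mutants were read as female.

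None of the 35 measured cell death genes passed the threshold in the mutants, an adjusted p under 0.05 in a limma fit over all genes. Over all genes 57 passed, which is 0.286%, and the smallest adjusted p of a member was 0.167. The median log2 difference of mutant minus control was 0.02 for the 35 genes and 0.02 for all genes, and 24 of the 35 differences were positive (68.6%, against 60.3% of all genes). The 95% interval of the difference lay between a 2-fold fall and a 2-fold rise for all 35 genes, as for 99.6% of all genes. It lay within 0.3 of 0 on the log2 scale for 23 of the 35 (65.7%), a smaller share than the 77.9% of all genes.

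At an unadjusted p under 0.05, 6 of the 35 genes stood out, and all 6 were higher in the mutants. These were Bmf, Bcl2l11, Sesn1, Bak1, Sesn2 and Bcl2l1. Their share of 17.1% compares with 6.05% of all genes in either direction and 4.53% in the higher direction, and 0 members were lower at that level. For 7 of the 35 genes (20.0%) every mutant array lay above every control array, against 7.69% of all genes, and for none did every mutant lie below, against 2.85%. The seventh was Birc3. The members were listed with earlier results of these data known, so these shares are descriptions. The count of 6 became 3 without control replicate 1 and 3 with the sex of the embryos as a covariate, and 4 without mutant replicate 1.

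Marker genes of other cell types differed between the same arrays. The mean log2 level of 11 erythroid genes was 7.27 to 7.38 in control embryos and 8.31 to 8.40 in mutant embryos, and 6 of the 11 rose. All 11 differences were positive, with a median of 0.62, and the globin gene Hbb-bh1 had the largest, 5.02. The groups overlapped for 3 of the 11, Gata1 (0.01), Epor (0.07) and Klf1 (0.11). These 3 had group means below the lowest array median, 7.23, as did Kel (0.66), Rhag (0.62) and Epb42 (0.55), which rose. The mean of 12 genes of pericytes and meninges was 7.28 to 7.37 in control embryos and 7.50 to 8.31 in mutant embryos, highest in mutant replicate 1, and none passed. Of the 12 differences 11 were positive, with a median of 0.27. The groups overlapped for 8 of the 12, among them the pericyte genes Pdgfrb (0.18), Abcc9 (0.16), Rgs5 (0.05) and Kcnj8 (-0.02). The connective tissue gene Dcn of this list read 10.49 in mutant replicate 1, 8.32 and 7.27 in the other mutants and 6.58 to 6.62 in the controls. The mean of 13 genes of microglia and macrophages was 6.97 to 7.12 in control embryos and 7.21 to 7.43 in mutant embryos, and none passed. All 13 differences were positive, with a median of 0.22, and 6 of the 13 genes did not overlap between the groups. The mean of 7 intermediate progenitor genes was 10.58 to 10.66 in control embryos and 10.71 to 10.80 in mutant embryos, where Neurod4 rose by 0.66. The median difference of the 7 was 0.07, and 5 were positive. Besides Neurod4, Eomes (0.21) and Gadd45g (-0.19) did not overlap between the groups, in opposite directions. The mean of 10 radial glia genes was 10.92 to 10.94 in control embryos and 10.81 to 10.90 in mutant embryos, where none passed. Endothelial genes, at 8.87 to 9.07 and 8.92 to 9.26, GABAergic genes, at 9.04 to 9.32 and 9.23 to 9.43, and projection neuron genes, at 11.98 to 12.06 and 12.05 to 12.08, overlapped between the groups. Immediate early and heat shock genes, a sign of handling stress, were at 7.84 to 7.92 and 7.89 to 7.97. The part of these cell types in the differences of Bmf, Bcl2l11, the sestrins, Bak1, Bcl2l1 and Gadd45a was not tested.

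**Figure D1:**
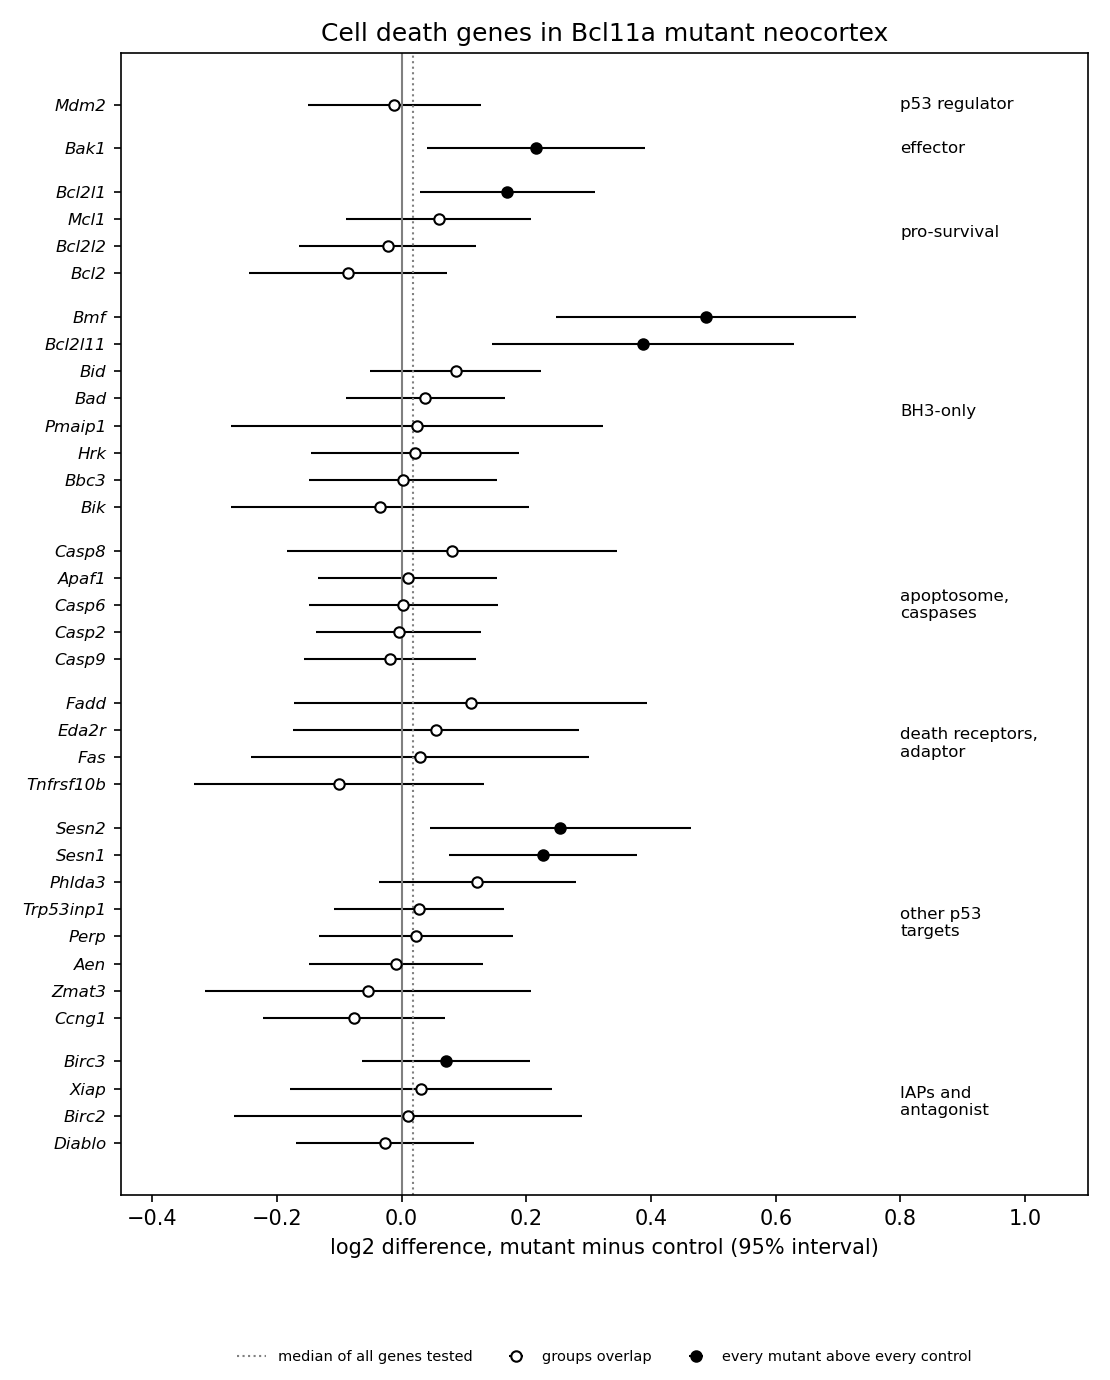
Log2 difference of mutant minus control (x axis) for the 35 measured genes, grouped by role (y axis), with limma's 95% interval as bars. Filled points mark the 7 genes whose mutant arrays all lay above the control arrays, and Bmf (0.49) and Bcl2l11 (0.39) lie farthest to the right. The dotted line is the median of all genes tested, 0.02.

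Mdm2, which is both the inhibitor of p53 and one of its direct targets, had log2 values of 10.74, 10.67 and 10.72 in control embryos and 10.64, 10.69 and 10.76 in mutant embryos. The groups overlapped, and the difference was -0.01 (95% interval -0.15 to 0.13).

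Of the BH3-only genes, whose products start the intrinsic pathway, none of 8 passed, 7 had positive differences and the median was 0.03. Bmf, whose protein is held at the cytoskeleton until cells detach or are stressed, had log2 values of 9.66, 9.27 and 9.47 in control embryos and 10.07, 9.82 and 9.98 in mutant embryos. All mutants lay above all controls. The difference was 0.49 ± 0.11 (SE), a ratio of 1.40, with a limma adjusted p of 0.167. Bcl2l11, which encodes Bim, a BH3-only protein that kills neurons deprived of trophic support, had values of 8.35, 8.30 and 8.53 in control embryos and 8.99, 8.77 and 8.59 in mutant embryos. Mutant replicate 3 lay just above control replicate 3, and mutant replicate 1 was highest. The difference was 0.39 ± 0.11 (SE), a ratio of 1.31, with a limma adjusted p of 0.348.

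The other 6 BH3-only genes had limma adjusted p-values of 1 and overlapping groups. Bbc3, which encodes the p53 target Puma, differed by 0.00 (95% interval -0.15 to 0.15) and Pmaip1, which encodes Noxa, by 0.02 (-0.27 to 0.32). Bid, which links death receptors to mitochondria once caspase-8 has cleaved it, differed by 0.09 (-0.05 to 0.22). Bad, which growth factor signals inactivate by phosphorylation, differed by 0.04 (-0.09 to 0.17). Hrk, a BH3-only gene prominent in neurons, differed by 0.02 (-0.15 to 0.19), and Bik by -0.03 (-0.27 to 0.20). Pmaip1 and Bik had control SDs of 0.29 and 0.23 and mutant SDs of 0.08 and 0.03.

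Bak1, the measured effector that forms pores in the outer mitochondrial membrane, had log2 values of 8.95, 9.09 and 9.0 in control embryos and 9.33, 9.25 and 9.10 in mutant embryos. The groups did not overlap, but mutant replicate 3 lay close to control replicate 2. The difference was 0.21 ± 0.08 (SE) with a limma adjusted p of 0.617.

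Among the 4 pro-survival genes, none passed and 2 differences were positive. Bcl2l1, which encodes Bcl-xL, the main survival factor of young cortical neurons and also of red cell precursors, had values of 9.66, 9.70 and 9.68 in control embryos and 9.89, 9.77 and 9.89 in mutant embryos. The controls lay close together (SD 0.02) and all mutants were above them. The difference was 0.17 ± 0.06 (SE) with a limma adjusted p of 0.626. Mcl1, the short-lived survival factor on which cortical progenitors depend, differed by 0.06 (95% interval -0.09 to 0.21). Bcl2 differed by -0.09 (-0.25 to 0.07) and Bcl2l2, which encodes Bcl-w, by -0.02 (-0.16 to 0.12).

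**Figure D2:**
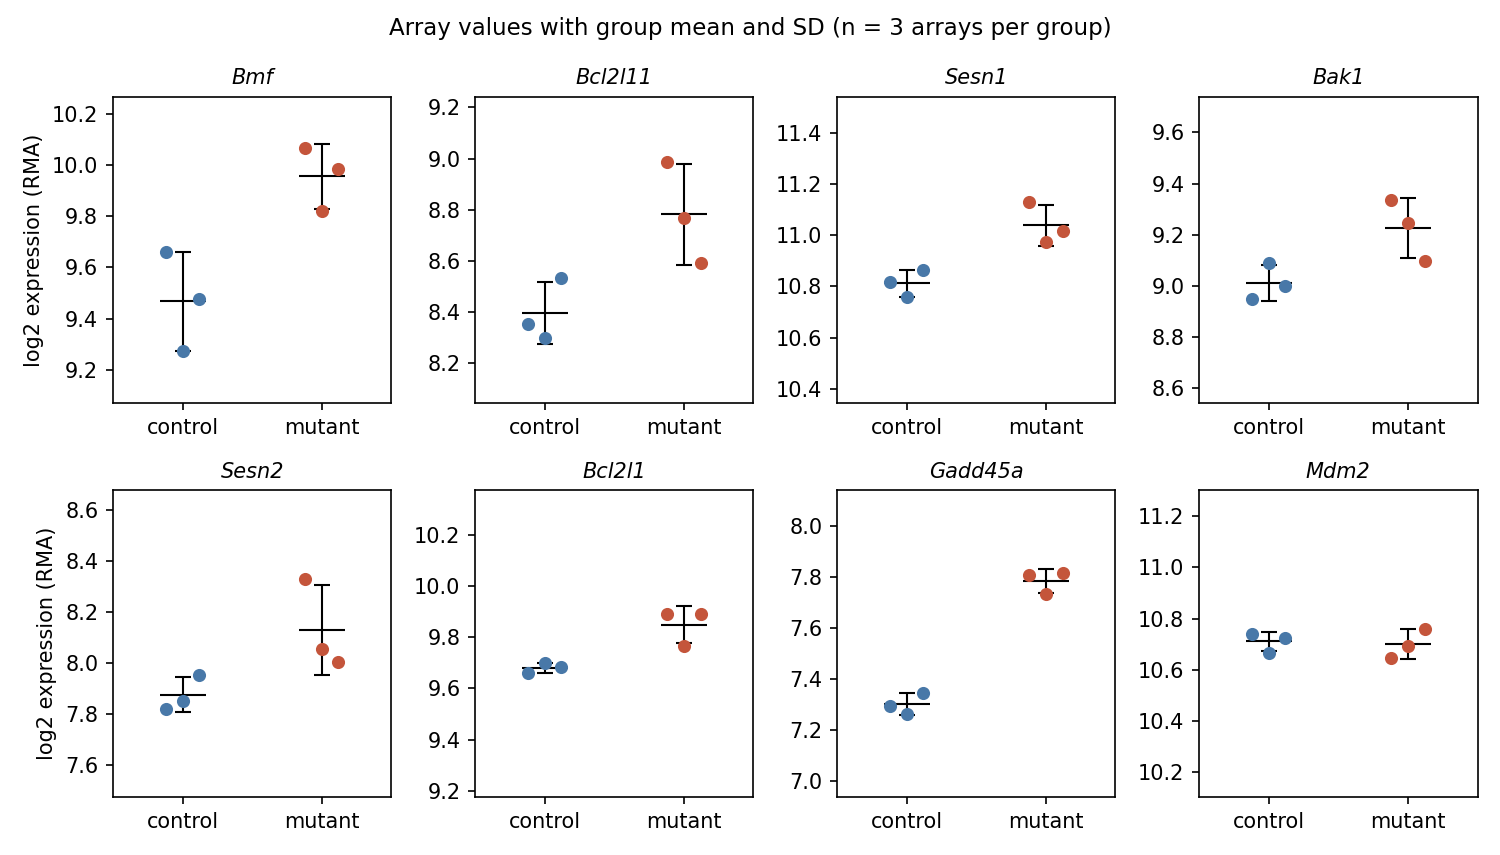
Log2 expression (y axis) on each array for the 6 members with the smallest p, for the p53 target Gadd45a and for Mdm2, with group mean and SD (n = 3 arrays per group). Each panel spans the same height on the log2 scale. Control and mutant points do not overlap in 7 panels and overlap for Mdm2.

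None of 5 apoptosome and caspase genes passed, and their differences lay between -0.02 and 0.08. Apaf1, the scaffold of the apoptosome, differed by 0.01 (95% interval -0.13 to 0.15), and Casp9, the caspase it activates, by -0.02 (-0.16 to 0.12). Casp2, an initiator linked to disturbed mitosis, had values of 11.13, 11.04 and 11.12 in control embryos and 11.11, 11.08 and 11.09 in mutant embryos. These were interleaved, with a difference of 0.00 (-0.14 to 0.13). Casp6, an effector caspase that also acts in axons, differed by 0.00 (-0.15 to 0.15). Casp8, the initiator downstream of death receptors, differed by 0.08 (-0.18 to 0.34), and its arrays ranged from 8.44 in control replicate 1 to 8.91 in mutant replicate 1.

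Death receptors and their adaptor likewise held no gene that passed, and 3 of 4 differences were positive. Fadd, which couples the receptors to Casp8, read 8.94, 8.69 and 8.39 in mutant replicates 1, 2 and 3 and 8.49 to 8.64 in the controls. The mutants thus lay on both sides of the controls, and the difference was 0.11 (95% interval -0.17 to 0.39). Fas differed by 0.03 (-0.24 to 0.30), the receptor gene Tnfrsf10b by -0.10 (-0.33 to 0.13) and Eda2r, a p53-induced receptor gene on the X chromosome, by 0.06 (-0.17 to 0.28).

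Among the 8 other p53 targets, none passed, 5 had positive differences and the median was 0.02. The sestrins Sesn1 and Sesn2, which restrain mTORC1 signalling and limit oxidative stress, had the largest ones. Sesn1 had log2 values of 10.82, 10.76 and 10.86 in control embryos and 11.13, 10.97 and 11.02 in mutant embryos. The groups did not overlap, and the difference was 0.23 ± 0.07 (SE, limma adjusted p = 0.400). Sesn2 had values of 7.82, 7.85 and 7.95 in control embryos and 8.33, 8.06 and 8.0 in mutant embryos. Mutant replicate 1 stood above the other mutants, and the difference of 0.25 ± 0.09 (SE, limma adjusted p = 0.626) was 0.15 without it.

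The groups overlapped for the other 6 of these p53 targets. Ccng1, which encodes cyclin G1 and has the half-site shown in its promoter, had values of 11.09, 11.12 and 11.11 in control embryos and 11.05, 10.94 and 11.11 in mutant embryos. Its mutants reached below the controls, and the difference was -0.08 (95% interval -0.22 to 0.07). Trp53inp1, a p53-induced gene that promotes p53 phosphorylation, had values of 11.68, 11.73 and 11.71 in control embryos and 11.71, 11.69 and 11.80 in mutant embryos. These overlapped, and the difference was 0.03 (-0.11 to 0.16). Aen, a p53-induced nuclease gene, differed by -0.01 (-0.15 to 0.13). Zmat3, an RNA-binding target of p53, differed by -0.05 (-0.32 to 0.21), and Perp, a membrane protein gene of desmosomes, by 0.02 (-0.13 to 0.18). Phlda3, a p53-induced inhibitor of Akt, differed by 0.12 (-0.04 to 0.28). It read 7.71 and 7.76 in mutant replicates 2 and 3, above all controls, and 7.56 in mutant replicate 1, within them.

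Of the inhibitor of apoptosis genes and their antagonist, none of 4 passed and 3 differences were positive. Birc3, an inhibitor gene induced by NF-kB, read 6.16, 6.13 and 6.15 in control embryos and 6.18, 6.19 and 6.28 in mutant embryos. These groups did not overlap, and the difference was 0.07 (95% interval -0.06 to 0.21). Birc2 differed by 0.01 (-0.27 to 0.29) at the probe set used and by 0.14 at its other, dimmer probe set. Xiap, the X-linked inhibitor that binds effector caspases and Casp9, differed by 0.03 (-0.18 to 0.24), and Diablo, which encodes the antagonist Smac, by -0.03 (-0.17 to 0.12). Xiap and Eda2r are X-linked, and the groups differed in their number of females.

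Of the 35 genes, 10 had their highest value on mutant replicate 1 (28.6%, against 27.6% of all genes). On mutant replicate 2 it was 1 gene (2.86%, against 6.64%), and on mutant replicate 3 it was 10 genes (28.6%, against 19.0%). The share on mutant replicate 1 was thus near that of all genes. Bmf, Bcl2l11, Sesn1, Bak1 and Sesn2 were all highest on mutant replicate 1. Without that embryo their differences were 0.433, 0.285, 0.182, 0.161 and 0.154. Array weights gave control replicate 2 and mutant replicate 2 weights of 3.02 and 2.18 and the other arrays 0.453 to 0.937. With these weights Bmf and Bcl2l11 passed (limma adjusted p of 0.0284 and 0.0474). In the same fit 217 of all 19938 genes passed, against 57 without weights. In the other alternative fits no member passed, and the smallest adjusted p was 0.0708.

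**Figure D3:**
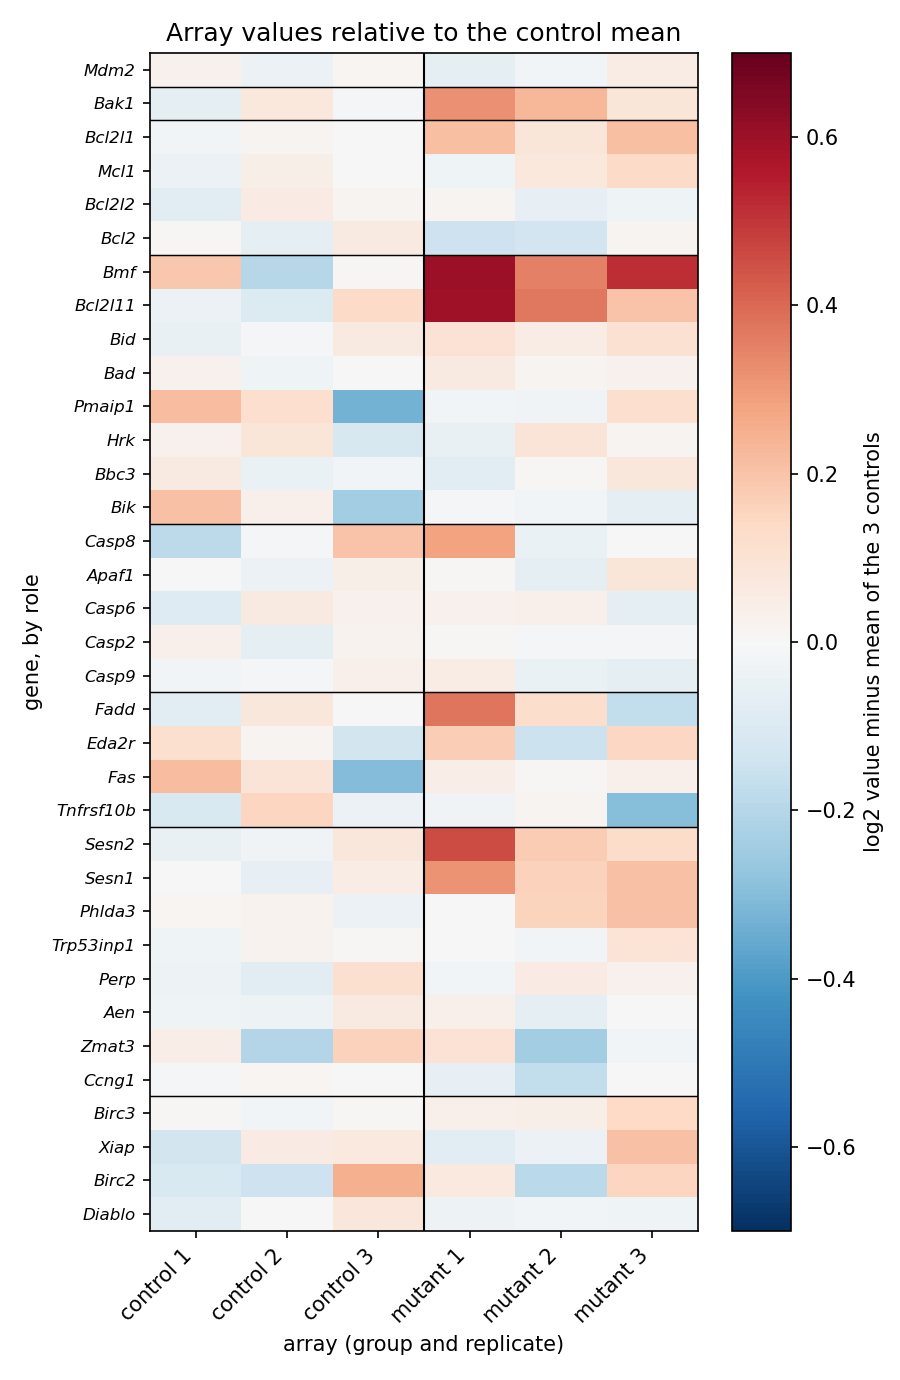
Log2 value of each array (columns) minus the mean of the 3 controls for the 35 measured genes (rows, by role). The darkest red cells are Bmf and Bcl2l11 in mutant replicate 1, and most other cells are pale in both groups.

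**Figure D4:**
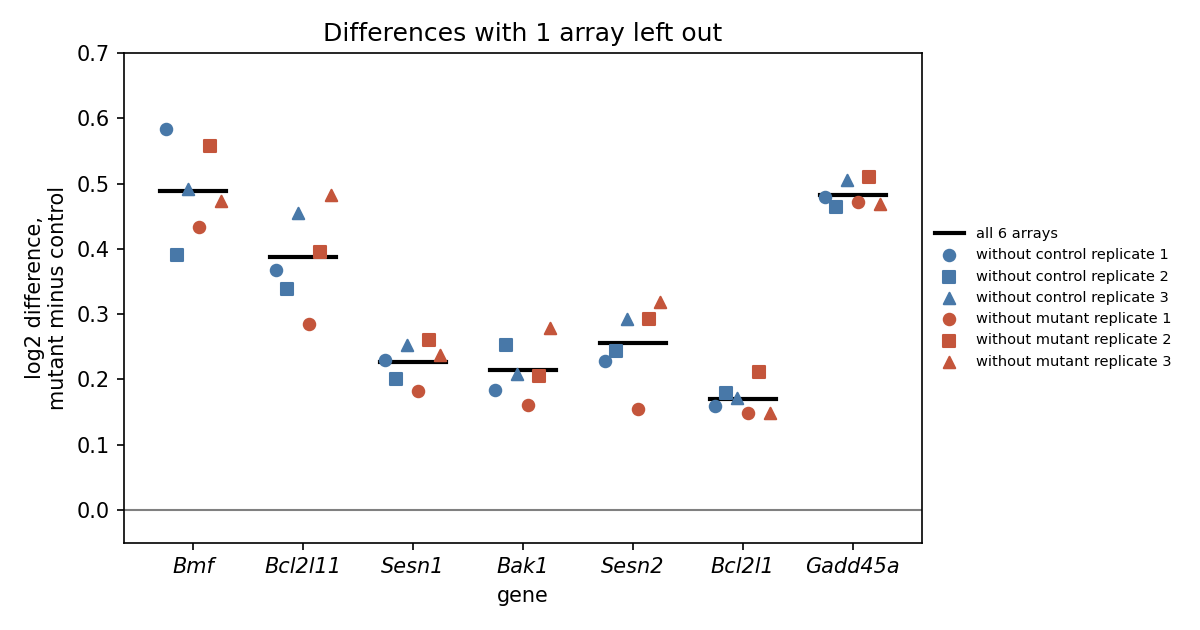
Log2 difference of mutant minus control (y axis) for 6 members and Gadd45a (x axis) with all 6 arrays (black line) and with each array left out in turn. All differences stay above 0. Sesn2 drops from 0.25 to 0.15 without mutant replicate 1, while Gadd45a stays between 0.46 and 0.51.

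Of 101 further genes of these pathways that were measured, 1 rose and none fell. Of all 19938 genes, 49 rose and 8 fell, together 0.286%. The pathway gene that rose was Gadd45a, a stress sensor gene induced by p53 and by other factors, which takes part in growth arrest and DNA repair. It read 7.29, 7.26 and 7.35 in control embryos and 7.81, 7.73 and 7.82 in mutant embryos. The groups did not overlap, and the log2 difference was 0.48 ± 0.06 (SE), a ratio of 1.40, with a limma adjusted p of 0.0152. It was the 1 call among 26 further p53 targets, whose differences ranged from -0.33 in Pvt1 to 0.55 in Sulf2 with a median of 0.03. Pvt1 was lower in every mutant (limma adjusted p = 0.186) and Sulf2 higher in every mutant (limma adjusted p = 0.140), and neither passed. Gadd45a no longer passed without control replicate 1, without control replicate 2 and without any 1 mutant (limma adjusted p of 0.0526 to 0.101), with sex as a covariate (0.0898) and with the replicate block (0.0618), and it passed in 8 of 15 alternatives. The cell cycle inhibitor gene Cdkn1a had no probe set of its own and was not analysed here.

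The other pathway lists held no gene that passed. Of 18 further regulators of p53, 8 had positive differences, with Cdkn2a, the gene of Arf, and Sirt1, a p53 deacetylase gene, both at 0.13. Of 15 further Bcl2 family and linked genes, 10 were positive, with Bnip3, a mitophagy gene induced by low oxygen, at 0.20 and Bcl2l15 at -0.09. Of 20 further caspase and mitochondrial death genes, 12 were positive, with Aifm2 at 0.18 and Septin4 at 0.16. Of 22 further death receptor genes, 14 were positive. Cflar, which encodes the Casp8 inhibitor c-FLIP, read 7.28, 7.59 and 7.78 in control embryos and 7.94, 7.80 and 7.93 in mutant embryos, a difference of 0.34 (limma adjusted p = 0.566). The difference of Cflar was 0.174 with the mean of its 3 probe sets (limma adjusted p = 0.982) and 0.206 without control replicate 1. Dapk2, a death-associated kinase gene, differed by 0.22. Dapk2, Bcl2l15, Aifm2 and Cdkn2a had group means below the lowest array median, 7.23, where RMA values are compressed.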

How the data were processed

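Gene expression was measured on 6 arrays, 1 per embryo, 3 control and 3 mutant. The submitters' processing notes name Affymetrix Expression Console and RMA, without versions. The values the authors deposited were taken as log2, as RMA gives, since they ranged from 3.41 to 13.8. RMA compresses differences near background. The table gives no detection calls, and 8 members (Bbc3, Pmaip1, Bik, Fas, Tnfrsf10b, Eda2r, Perp and Birc3) had means below the lowest array median, 7.23, so their changes may be understated. Precision is limited by the number of arrays.

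Of 35556 probe sets, 21789 had 1 gene symbol. Per gene, the probe set with the highest mean was used, which left 19938 genes. Groups were compared across all genes with limma 3.58.1 (R 4.3.3, lmFit and eBayes, no covariate), two-sided, with Benjamini-Hochberg adjustment over all genes. The fit was tested on simulated data. Group errors are SDs and errors of differences are moderated SEs. Alternatives were 1 array left out, the replicate number as a block, quantile normalization, median centring, array weights, sex, other probe set rules, a filter on dim genes and a mean-variance trend. All 37 members are named. Of each pathway list, genes past the threshold are named, or else the 2 with the smallest p. The members and lists were chosen with earlier results of these data known. Cdkn1a, Rps27l, Sulf2, Pvt1, Neurod4, Hopx, Bcl11b and further marker genes were named outside this rule, and the forkhead search was added after the values were seen.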

Additional observations from a re-analysis of the deposited data

How the results depend on the processing

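Counts of members at an unadjusted p under 0.05 or without overlap under each alternative were added after seeing the data. The number of all genes past the threshold was 57, and 20 to 50 when 1 array was left out, 34 with the replicate block, 217 with array weights and 24 when sex was a covariate. It was 107 for a threshold of 0.1 and 1207 without adjustment. Members past the threshold numbered 0 in limma, 2 with array weights and 6 at an unadjusted p under 0.05. Further pathway genes numbered 1, and 0 to 1 with 1 array left out, 0 with the replicate block, 3 with array weights, 0 when sex was a covariate and 7 at an unadjusted p under 0.05. Members at an unadjusted p under 0.05 numbered 3 to 6 with 1 array left out and 3 with sex as a covariate. The members' median difference was 0.025, and 0.012 to 0.047 with 1 array left out, lowest without mutant replicate 3 and highest without mutant replicate 2, and 0.00741 with sex as a covariate. Fits without an array have fewer samples, and for the other settings the cause was not tested.

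Bcl11a passed in all 15 alternative fits. Of 517 values of single members, 515 stayed on their side of the threshold, and the 2 others were Bmf and Bcl2l11 with array weights. The sign changed in at least 1 alternative for 21 of the 35 members, none past the threshold. The replicate block changed no call of a member. The deviations of arrays with the same number correlated at 0.03, -0.14 and 0.08, so the numbers were not taken to pair the embryos.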

Other observations

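Some members varied more among the controls than between the groups. Fas read 5.80, 5.67 and 5.28 in control replicates 1, 2 and 3 and 5.60 to 5.63 in the mutants. Pmaip1 read 6.68, 6.58 and 6.13 in the controls and 6.44 to 6.59 in the mutants, and Bik 7.36, 7.19 and 6.91 in the controls and 7.09 to 7.14 in the mutants. All 3 were lowest on control replicate 3 and highest on control replicate 1, and all had means below the lowest array median. They were chosen after their values were seen.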
